A study of Homo sapiens with 30 samples.

Results

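The retinoid response and metabolism genes are 9 genes taken by symbol: the response genes RARRES1 and PLAAT4 (formerly RARRES3), the carrier CRABP2, the enzymes ALDH1A3, DHRS3 and DHRS9, and the receptors RARG, RARA and RXRA. They make up 9 of the 20046 genes named on the array and 14 of its 47231 probes. All 30 arrays hold total RNA of cells labelled MCF-10A, an immortalised, non-tumorigenic human mammary epithelial line. Cells of every group, the controls included, had cyclin E overexpressed and a short hairpin RNA (shRNA) stably introduced. They were seeded at 200000 per plate and collected after 48 h. The shRNAs were shATM, shATR, shCHK1 and shCHK2, named for the kinases of the DNA damage and replication stress response, and the control shControl. Each was measured in set 1 and in set 2 with 3 replicates, which gives 10 groups of 3 arrays. What distinguishes the sets is not labelled, nor whether replicates were separate cultures or a line was 1 clone, so the p-values measure the spread between these arrays, which may be technical.

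Vitamin A reaches cells as retinol, which is oxidised to retinal and then to retinoic acid. Retinoic acid is carried by binding proteins to the nucleus, where dimers of a retinoic acid receptor (RAR) and a retinoid X receptor (RXR) switch on target genes, several of which encode the carriers and enzymes of the pathway itself. In stratified and glandular epithelia, the mammary gland among them, retinoic acid is known for its control of differentiation and growth.

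The count of detected probes per array was 18984 to 21732, and the number of arrays limits the precision. Levels are given as background-corrected, quantile-normalised log2 intensities, and a probe counts as detected at a detection p-value under 0.05. On the first principal component of 13721 genes, which held 57.6% of the variance, knockdown arrays lay between 9.20 and 30.9 and control arrays between -90.7 and -81.1. CDKN2A, a cell cycle inhibitor gene in a region known to be deleted in MCF-10A, was detected on 24 of 24 knockdown arrays and 0 of 6 control arrays, and its neighbour MTAP on 24 and 2. The detection on knockdown arrays goes against the MCF-10A label, and in a comparison with shControl the knockdown and a difference between cell lines cannot be told apart. Replicate 3 of shATR set 2 lay at -21.2 on the third component, beside -1.60 and -3.60 for the group's other replicates. For shCHK2 set 1, replicate 3 had -30.1 there and the other replicates -11.5 and -13.4.

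Each knocked-down transcript was checked against shControl of the same set. For ATM the shATM arrays gave -0.67 (set 1) and -0.30 (set 2) (SE 0.11, adjusted p = 1.4e-05 and 0.024). CHEK1, the gene of CHK1, differed in shCHK1 by -0.38 and -1.18 (SE 0.11, adjusted p = 0.0063 and 1.2e-09). CHEK2 differed in shCHK2 by -0.55 in set 1 (SE 0.13, adjusted p = 0.0011) and by -0.15 in set 2 (adjusted p = 0.38). Against the mean of the other 3 knockdowns, which uses no control array, CHEK2 differed in shCHK2 by -0.35 and -0.76 (adjusted p = 0.037 and 4.7e-05). By that comparison ATM differed in shATM by -0.76 and -0.67 (adjusted p = 1.6e-06 and 1.1e-05). CHEK1 differed in shCHK1 by -1.19 and -1.43 (adjusted p = 6.6e-10 and 1.4e-10). The ATR probe stood near background (13 of 30 arrays detected it). In set 1 the arrays labelled shATR exceeded shControl by 0.65 for it (SE 0.16, adjusted p = 0.0021), and shCHK1 did by 0.42 (adjusted p = 0.042). In set 2 the arrays labelled shATR differed by 0.03 (adjusted p = 0.9). Against the other 3 knockdowns they differed by 0.40 in set 1 and 0.24 in set 2 (adjusted p = 0.22 and 0.42). The ATR probe was thus not lower in those arrays in either set. Its mean log2 was 4.77 on control arrays, so near background that a fall could hardly show. Whether those arrays match their label could therefore not be told from it. CCNE1, the cyclin E1 gene, differed by -2.72 to -0.94 across the 8 comparisons of a knockdown with shControl, and all 8 were called.

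Markers of mammary and other cells were summed on each array, without a test. All 5 basal mammary markers on the array were detected on every array, with summed normalised intensities of 4990 to 16500 on knockdown arrays and 4040 to 7110 on control arrays. The 8 luminal breast markers, of which PGR was detected on no array, summed to 979 to 1970 on knockdown arrays and 11900 to 14000 on control arrays. Each of the others had its higher mean on control arrays, such as MUC1 (mean log2 5.81 on knockdown arrays, 12.57 on control arrays) and ELF3 (8.18 and 11.46). Whether the control cells match the MCF-10A label was not tested either. The 7 mesenchymal markers, of which ZEB1 was detected on no array, summed to 6990 to 13400 on knockdown arrays and 1320 to 1520 on control arrays. Among them VIM (mean log2 12.76 on knockdown arrays, 9.99 on control arrays) and SNAI2 (11.06 and 5.71) were higher on knockdown arrays, while TWIST1 (6.62 and 7.29) and ZEB2 (4.52 and 4.83) were lower. The 5 pan-epithelial markers summed to 9100 to 14500 and 15700 to 21100 in the same order, with KRT18 the other way (mean log2 8.0 and 7.33). Fibroblast markers (180 to 422, and 189 to 213) and endothelial markers (108 to 144, and 265 to 382) were low, with 3 of 8 and 2 of 5 detected on no array. Leukocyte markers summed to 1360 to 2330 on knockdown arrays and 1460 to 1860 on control arrays, with CD3E detected on no array and CD68 on all. The part of these differences in the retinoid genes was not tested. In such bulk RNA, fewer cells of a type and less RNA per cell cannot be told apart.

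Of the 8 members with a probe that passed the detection filter (detected on at least 3 arrays), 3 fell in all 8 comparisons with shControl, namely RARRES1, CRABP2 and PLAAT4. The same rule called 13% of all 13721 genes tested. No member rose in all 8, where 10% of genes did. ALDH1A3 rose with all 4 knockdowns in set 1, and DHRS3 rose with all 4 in set 2, as 17% and 17.7% of genes did in those sets. Members that fell with all 4 knockdowns numbered 4 in set 1, RARG being the additional one, and 3 in set 2, beside 17.5% and 22.1% of genes. The receptor genes RARG, RARA and RXRA differed from shControl by at most 0.49 on the log2 scale. DHRS9, an enzyme that oxidises retinol, has 1 probe, which was detected on 0 of 30 arrays (log2 4.23 to 4.63) and was not tested.

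**Figure D1:**
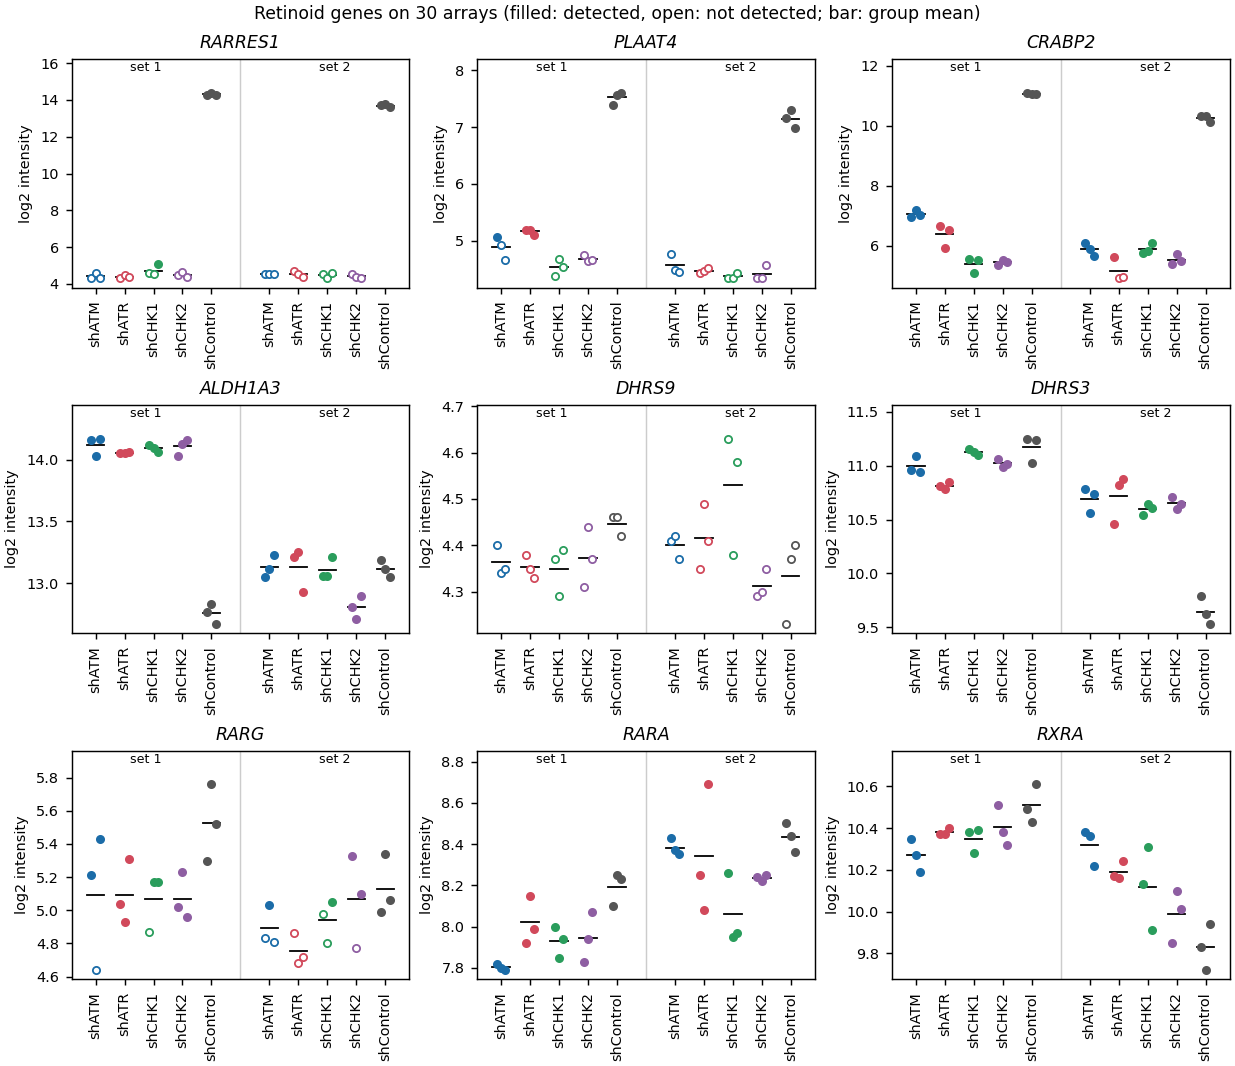
Normalised log2 intensity of each member on each of the 30 arrays, with the 4 knockdowns left of shControl in each set; filled points are detected, open points are not, and bars are group means of 3 arrays. Knockdown arrays of RARRES1 lie between 4.30 and 5.06, against 13.62 to 14.38 on control arrays, and all points of DHRS9 are open.

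Since RARRES1 and CRABP2 fell together in all 8 comparisons and ALDH1A3 rose in set 1, the 250 bases before the start of these genes are shown. The sequences are from RefSeq on GRCh38.p14, written 5′ to 3′ on the strand of the gene: RARRES1 at chr3:158732458-158732707 (minus strand), CRABP2 at chr1:156705785-156706034 (minus strand) and ALDH1A3 at chr15:100879581-100879830 (plus strand). Capitals mark a match to the hexamer that 1 partner of the RAR and RXR dimer is known to bind.

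RARRES1: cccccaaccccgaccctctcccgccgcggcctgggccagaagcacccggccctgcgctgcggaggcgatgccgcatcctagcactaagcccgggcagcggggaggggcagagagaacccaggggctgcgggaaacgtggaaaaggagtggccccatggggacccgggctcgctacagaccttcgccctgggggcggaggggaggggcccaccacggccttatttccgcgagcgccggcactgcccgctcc

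CRABP2: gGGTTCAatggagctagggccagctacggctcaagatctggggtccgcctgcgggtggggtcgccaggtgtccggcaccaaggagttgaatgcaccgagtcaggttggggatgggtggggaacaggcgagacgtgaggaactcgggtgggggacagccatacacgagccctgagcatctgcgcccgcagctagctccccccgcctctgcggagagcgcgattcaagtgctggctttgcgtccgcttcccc

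ALDH1A3: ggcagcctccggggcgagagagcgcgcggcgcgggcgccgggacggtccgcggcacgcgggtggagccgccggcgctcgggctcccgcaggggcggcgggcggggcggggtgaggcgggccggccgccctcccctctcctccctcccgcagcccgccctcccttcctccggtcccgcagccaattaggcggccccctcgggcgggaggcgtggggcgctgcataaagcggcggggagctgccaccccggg

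The hexamers were searched on both strands. The first was AGGTCA, the next was AGTTCA, another was GGGTCA, and the last was GGTTCA. CRABP2 holds 1 match, to the last of these, 249 bases before the start, while the windows of RARRES1 and ALDH1A3 hold none. Of 35116 promoter windows of this length in the reference table, 33.8% hold at least 1 such hexamer. A pair of hexamers in direct repeat with a spacer of 1, 2 or 5 bases, the arrangement that the receptor dimer is known to bind, are in 0.202% of windows and in 0 of the 16 windows listed for 8 members. Of those 16 windows, 6 hold a hexamer. The windows are rich in G and C, with 73.2% in RARRES1, 65.6% in CRABP2 and 82.4% in ALDH1A3. A match is a description of the letters and not a binding site.

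Among the response genes, RARRES1, a retinoid-induced membrane protein gene that is often silenced in tumours, fell in all 8 comparisons. Its compared probe, the one with the highest mean, had log2 intensities of 4.30 to 5.06 (median 4.49) on the 12 knockdown arrays of set 1 and 14.29, 14.38 and 14.25 on the shControl arrays of that set. In set 2 it had 4.34 to 4.71 (median 4.55) on the 12 knockdown arrays and 13.70, 13.76 and 13.62 in shControl. Every knockdown array was below every control array, and 1 of the 24 knockdown arrays, of shCHK1 set 1, detected the probe.

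With no detected array in a group, the fold is a lower bound set by the dimmest detected signal. In set 1, RARRES1 was at least 649-fold lower in shATM, at least 677-fold lower in the arrays labelled shATR and at least 677-fold lower in shCHK2. In shCHK1 of set 1, where 1 of 3 arrays detected it, the log2 difference was -9.59 (SE 0.12, adjusted p = 1e-27). In set 2, RARRES1 was at least 404-fold lower in shATM, 411-fold in shCHK1, 405-fold in shCHK2 and 415-fold in the arrays labelled shATR, with adjusted p between 4.4e-27 and 6.1e-27. All 6 control arrays and no knockdown array detected the other probes of the gene. A second probe was at least 237-fold to at least 460-fold lower over the 8 comparisons, and the other one at least 18.9-fold to at least 45.9-fold lower. All 3 probes thus fell in every comparison. These bounds depend on the background correction: without it the log2 differences of the compared probe lay between -7.63 and -6.92, and with an offset of 50 between -8.52 and -7.85, and all stayed called.

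PLAAT4, a phospholipase and acyltransferase first described as retinoid-induced, also fell in all 8 comparisons. In set 1 its log2 intensities were 5.07, 4.93 and 4.66 in shATM, and 5.20, 5.20 and 5.10 in the arrays labelled shATR. They were 4.38, 4.69 and 4.54 in shCHK1, 4.76, 4.64 and 4.67 in shCHK2, and 7.39, 7.57 and 7.60 in shControl. The probe was detected on all 3 arrays labelled shATR, on 1 of 3 shATM arrays and on no shCHK1 or shCHK2 array of set 1. No knockdown array reached a control array.

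In set 2, PLAAT4 stood at 4.77, 4.49 and 4.45 in shATM, 4.43, 4.47 and 4.53 in the arrays labelled shATR, and 4.35, 4.35 and 4.43 in shCHK1. It stood at 4.34, 4.34 and 4.58 in shCHK2 and at 7.16, 7.30 and 6.98 in shControl. None of the 12 knockdown arrays of set 2 detected it. The log2 differences were -2.63 in shATM and -2.35 in the arrays labelled shATR of set 1 (SE 0.11, adjusted p = 1.9e-16 and 2.2e-15). In the other 6 comparisons PLAAT4 was at least 4.32-fold to at least 6.14-fold lower, with shATM of set 2 at the low end and shCHK2 of set 1 at the high end. Without background correction the 8 differences lay between -1.34 and -1.08, against -2.98 to -2.35 with it, and all 8 stayed called.

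CRABP2, the protein that carries retinoic acid to RAR in the nucleus, was the member with the widest range among knockdowns. In set 1 it had log2 intensities of 6.96, 7.21 and 7.04 in shATM, and 6.67, 5.94 and 6.52 in the arrays labelled shATR. It had 5.56, 5.08 and 5.53 in shCHK1, 5.36, 5.52 and 5.47 in shCHK2, and 11.10, 11.06 and 11.05 in shControl. The shATM arrays were thus the highest of the knockdown arrays, and all knockdown arrays were far below shControl.

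In set 2, CRABP2 had 6.09, 5.89 and 5.65 in shATM, and 5.62, 4.91 and 4.96 in the arrays labelled shATR, of which 1 of 3 detected it. It had 5.77, 5.81 and 6.08 in shCHK1, 5.38, 5.73 and 5.49 in shCHK2, and 10.34, 10.33 and 10.13 in shControl. The log2 differences in set 1 were -4.00, -4.69, -5.68 and -5.62 for shATM, the arrays labelled shATR, shCHK1 and shCHK2. In set 2 they were -4.39, -5.11, -4.38 and -4.73 (SE 0.18 in all 8, adjusted p from 1.7e-19 to 3.6e-16). Without background correction the differences lay between -4.06 and -3.13 and stayed called.

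The order of the CRABP2 group means was shControl set 1 (11.07), shControl set 2 (10.27), shATM set 1 (7.07) and the set 1 arrays labelled shATR (6.38), and the arrays of these neighbours did not overlap. Below them came shCHK1 set 2 (5.89), shATM set 2 (5.88), shCHK2 set 2 (5.54), shCHK2 set 1 (5.45), shCHK1 set 1 (5.39) and the set 2 arrays labelled shATR (5.16). From the set 1 arrays labelled shATR downwards, the arrays of each group overlapped those of the next. For PLAAT4, the arrays of neighbouring groups overlapped from shATM set 1 (4.88) down to shCHK1 set 2 (4.38), and for RARRES1 they overlapped among all 8 knockdown groups.

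**Figure D2:**
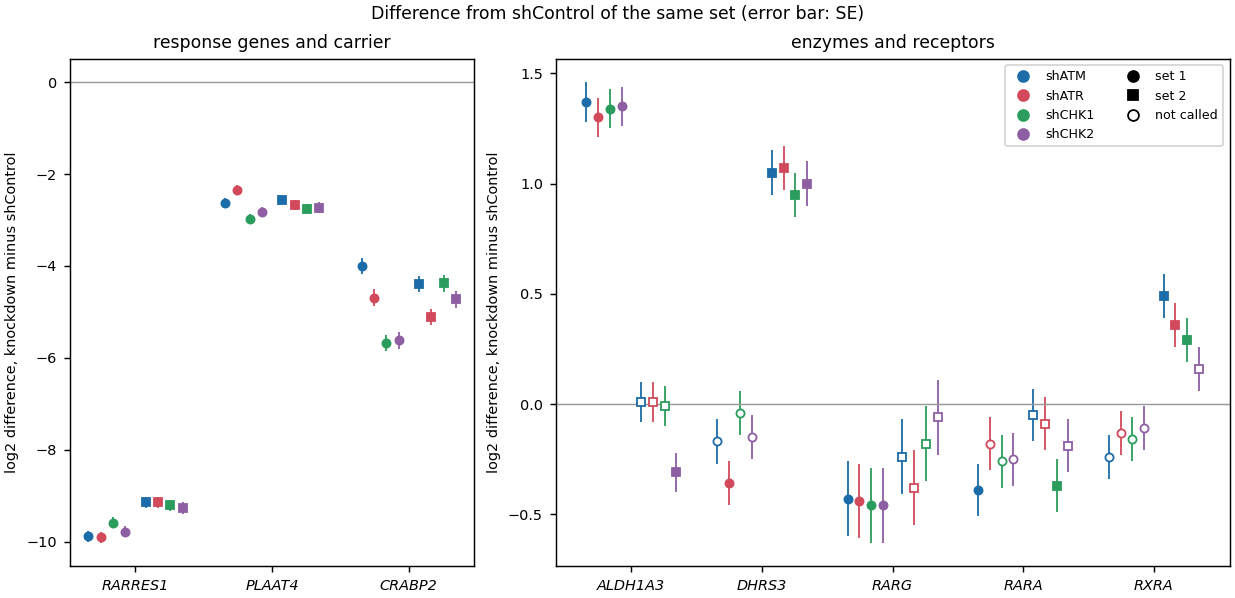
Log2 difference of each knockdown from shControl of the same set for the 8 tested members, with the standard error; circles are set 1, squares are set 2, and open symbols did not pass the test. RARRES1, PLAAT4 and CRABP2 are below 0 in all 8 comparisons, ALDH1A3 is above 1 only in set 1 and DHRS3 reaches 0.95 to 1.07 only in set 2.

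ALDH1A3, the retinal dehydrogenase that makes retinoic acid in mammary and other epithelia, was higher with all 4 knockdowns in set 1 and, by its compared probe, with none in set 2. In set 1 its log2 intensities were 14.16, 14.03 and 14.17 in shATM, and 14.05, 14.05 and 14.06 in the arrays labelled shATR. They were 14.12, 14.09 and 14.06 in shCHK1, 14.03, 14.13 and 14.16 in shCHK2, and 12.77, 12.83 and 12.67 in shControl. All 12 knockdown arrays were above the 3 control arrays. The differences were 1.37, 1.30, 1.34 and 1.35 in the order of the shRNAs above (SE 0.09, adjusted p from 1.6e-12 to 4.5e-12), which are 2.46-fold to 2.58-fold.

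In set 2, ALDH1A3 had 13.05, 13.12 and 13.23 in shATM, and 13.21, 13.25 and 12.93 in the arrays labelled shATR. It had 13.06, 13.06 and 13.21 in shCHK1, 12.81, 12.71 and 12.90 in shCHK2, and 13.19, 13.12 and 13.05 in shControl. The shCHK2 arrays were below the control arrays, and the other groups overlapped them. The differences were 0.01, 0.01 and -0.01 for the first 3 (adjusted p = 0.92 to 0.94) and -0.31 for shCHK2 (SE 0.09, adjusted p = 0.0057). With each array scaled to its median instead of quantile normalised, the shCHK2 difference was 0.01 (adjusted p = 0.94) and that of the arrays labelled shATR was 0.36 (adjusted p = 0.018). The second probe of ALDH1A3 rose by 1.56 to 1.80 in set 1. In set 2 it differed by 0.18 in shATM and -0.04 in shCHK2, which were not called, and by 0.31 in both shCHK1 and the arrays labelled shATR, which were called (adjusted p = 0.015 and 0.012).

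DHRS3, an enzyme that reduces retinal back to retinol and is itself retinoid-induced, showed its larger differences in set 2. There it had 10.78, 10.56 and 10.74 in shATM, and 10.46, 10.82 and 10.88 in the arrays labelled shATR. It had 10.54, 10.64 and 10.61 in shCHK1, 10.71, 10.60 and 10.64 in shCHK2, and 9.79, 9.62 and 9.53 in shControl. All 12 knockdown arrays were above the control arrays. The differences were 1.05, 1.07, 0.95 and 1.00 (SE 0.10, adjusted p from 1.6e-09 to 1.4e-08).

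In set 1, DHRS3 had 10.96, 11.09 and 10.94 in shATM, and 10.81, 10.78 and 10.85 in the arrays labelled shATR. It had 11.15, 11.13 and 11.10 in shCHK1, 11.06, 10.99 and 11.01 in shCHK2, and 11.25, 11.02 and 11.24 in shControl. All groups but the arrays labelled shATR overlapped the controls. Their difference was -0.36 (SE 0.10, adjusted p = 0.0054), and -0.03 (adjusted p = 0.89) with median scaling. The other 3 differences were between -0.17 and -0.04, or between -0.05 and 0.19 with median scaling, and were not called.

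For both genes the difference from shControl thus varied with the set. Against set 2, shControl of set 1 was higher by 1.52 for DHRS3 and differed by -0.37 for ALDH1A3 (adjusted p = 2.6e-11 and 0.0077). The mean of the 4 knockdowns was higher in set 1 than in set 2 by 0.33 for DHRS3 and by 1.05 for ALDH1A3 (adjusted p = 5.2e-06 and 1.8e-16). The DHRS3 contrast between sets was thus the larger on the control arrays, and the ALDH1A3 contrast was the larger on the knockdown arrays, where its sign was opposite.

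The receptor genes differed less. RXRA, the obligate partner of RAR, had log2 intensities in set 2 of 10.38, 10.36 and 10.22 in shATM, and 10.17, 10.16 and 10.24 in the arrays labelled shATR. It had 10.13, 10.31 and 9.91 in shCHK1, 9.85, 10.10 and 10.01 in shCHK2, and 9.83, 9.72 and 9.94 in shControl. It rose by 0.49, 0.36 and 0.29 in the first 3 (SE 0.10, adjusted p = 0.00019, 0.0037 and 0.021) and differed by 0.16 in shCHK2 (adjusted p = 0.21). The shCHK1 arrays overlapped the controls, and that call was lost at adjusted p = 0.053 without shCHK1 replicate 1, 0.16 without shCHK1 replicate 2 (difference 0.19) and 0.10 without shControl replicate 2. In set 1, RXRA had 10.19 to 10.51 on the 12 knockdown arrays and 10.43 to 10.61 on the 3 control arrays, with differences of -0.24 to -0.11 that were not called and, with median scaling, lay between -0.11 and 0.24. That of shATM (-0.24, adjusted p = 0.062) was called under 5 alternatives, among them the authors' log2 values (-0.22, adjusted p = 0.024).

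RARA, the retinoic acid receptor alpha gene, had 7.82, 7.80 and 7.79 in shATM of set 1, against 8.10, 8.25 and 8.23 in shControl of that set. The difference was -0.39 (SE 0.12, adjusted p = 0.008), and -0.32 (adjusted p = 0.19) with median scaling. In set 2 it had 8.26, 7.95 and 7.97 in shCHK1, against 8.50, 8.44 and 8.36 in shControl. That difference was -0.37 (adjusted p = 0.01), and -0.32 (adjusted p = 0.055) without shCHK1 replicate 2. The other 6 differences were between -0.26 and -0.05 and were not called; with median scaling those of shCHK2 and of the arrays labelled shATR in set 1 were 0.09. Among these, the difference of the set 2 arrays labelled shATR was -0.09 and became -0.26 (adjusted p = 0.045) without replicate 3, which stands apart and had 8.69 beside 8.25 and 8.08. A second RARA probe, detected on 4 of 30 arrays, was called in no comparison with shControl, and the remaining probe was detected on none.

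RARG, the retinoic acid receptor gamma gene, was close to background and detected on 20 of 30 arrays. In set 1 it had 4.64 to 5.43 (median 5.11) on the 12 knockdown arrays and 5.30, 5.76 and 5.52 in shControl, and the arrays of shATM and of those labelled shATR overlapped the controls. The differences were -0.43, -0.44, -0.46 and -0.46 in shATM, the arrays labelled shATR, shCHK1 and shCHK2 (SE 0.17, adjusted p = 0.045, 0.043, 0.031 and 0.032). With the authors' log2 values they were -0.15 to -0.14 and none was called (adjusted p = 0.088 to 0.11). All 4 calls were lost without shControl replicate 2 (-0.34 to -0.32, adjusted p = 0.16 to 0.21) or without shControl replicate 3 (adjusted p = 0.064 to 0.085). The shATM call was also lost without shATM replicate 2 (-0.21, adjusted p = 0.38). Leaving out replicate 1 or 2 of the arrays labelled shATR gave adjusted p of 0.11 and 0.17, leaving out shCHK1 replicate 1 gave 0.15, and leaving out shCHK2 replicate 1 or 3 gave 0.082 and 0.11. In set 2 the differences were -0.38 to -0.06 and were not called.

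Read against all genes, the members called in set 1 were 6 of 8 for shATM (background 46.6%), 6 for the arrays labelled shATR (47%), 5 for shCHK1 (48.6%) and 5 for shCHK2 (49.3%). In set 2 they were 5 (52.7%), 5 (53.2%), 6 (52.1%) and 5 (53.9%) in the same order of shRNAs. By direction, in set 1, 1 member was higher and 5 lower in shATM, beside 23.1% and 23.5% of genes, and as many in the arrays labelled shATR, beside 23.6% and 23.4%. With shCHK1 or shCHK2 of set 1, 1 was higher and 4 lower, beside 24.5% and 24% for shCHK1 and 25% and 24.3% for shCHK2. In set 2, 2 were higher and 3 lower in shATM (24% and 28.7% of genes) and in the arrays labelled shATR (24.8% and 28.4%). There, shCHK1 had 2 higher and 4 lower (24.2% and 27.9%), and shCHK2 had 1 higher and 4 lower (24.9% and 29%). The median difference of the members was -0.41 to -0.15 over the 8 comparisons, beside -0.01 to 0.01 for all genes. These 8 counts are not independent, because the 4 knockdowns of a set share 3 control arrays. Every knockdown array was below every control array for 3 of 8 members, which was so for 12.1% of all genes, and above for 0, against 8.93% of genes.

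The difference between the sets was tested as set 1 minus set 2 of each knockdown's difference from shControl. It was called for 4 of 8 members with each shRNA, beside 27.7% of genes for shATM, 26.8% for shATR, 27.6% for shCHK1 and 30.2% for shCHK2. ALDH1A3 and DHRS3 were called with all 4 shRNAs, where 14.1% of genes were. The 4 tests of a gene share the 6 control arrays, so they are not independent. The ALDH1A3 values were 1.35, 1.29, 1.35 and 1.67 (SE 0.13), and those of DHRS3 were -1.22, -1.43, -0.99 and -1.15 (SE 0.14). Between the shControl groups, set 1 against set 2, 6 of 8 members were called, beside 13.6% of genes. Besides DHRS3 and ALDH1A3 these were CRABP2 (0.80), RXRA (0.68), RARRES1 (0.61) and PLAAT4 (0.37). The PLAAT4 call (adjusted p = 0.036) was lost without shControl set 1 replicate 2 (0.35, adjusted p = 0.11) or 3 (0.33, 0.14), and without set 2 replicate 1 (0.38, 0.08) or 3 (0.29, 0.20). Median scaling (0.28, adjusted p = 0.24) and only the groups compared (adjusted p = 0.11) lost it too. The ALDH1A3 call was lost at adjusted p = 0.051 without shControl set 1 replicate 3 (-0.32), and at 0.064 with only the groups compared. The second probe of ALDH1A3 was not called (-0.30, adjusted p = 0.058). Among the knockdown groups, set 1 against set 2, 6 of 8 were called, beside 57.5% of genes: ALDH1A3 (1.05), CRABP2 (0.46), PLAAT4 (0.36), DHRS3 (0.33) and RXRA (0.20) were higher and RARA (-0.33) lower in set 1. The RARA value was -0.13 (adjusted p = 0.22) with median scaling. The PLAAT4 value sets levels at or near background against each other, since 4 of 12 knockdown arrays of set 1 and 0 of 12 of set 2 detected it.

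Differences between the shRNAs were tested for each knockdown against the mean of the other 3 of its set, which uses no control array. Of the 8 members, CRABP2, PLAAT4 and ALDH1A3 were called in at least 1 of these 8 comparisons, and 25.9% of genes were. CRABP2 was higher in shATM of set 1 by 1.33 (SE 0.15, adjusted p = 6.2e-07), where 10.6% of genes were called. It was lower in shCHK1 of set 1, with a difference of -0.91 (adjusted p = 0.00016, background 6.52%), and in shCHK2 of set 1, with -0.83 (adjusted p = 6e-04, background 10.9%). In set 2 it was lower in the arrays labelled shATR, with a difference of -0.61 (adjusted p = 0.03, background 2.06%), and of -0.20 with the authors' log2 values (adjusted p = 0.091) or without background correction (0.094). That call was lost without replicate 2 (-0.48, adjusted p = 0.16) or replicate 3 (-0.50, adjusted p = 0.21) of those arrays, and at adjusted p = 0.05 without shATM set 2 replicate 1 (-0.57).

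PLAAT4 was higher in the set 1 arrays labelled shATR by 0.46 (SE 0.09, adjusted p = 0.0093, background 1.55%) and lower in shCHK1, with a difference of -0.38 (adjusted p = 0.015). These levels were near background. Without background correction the values were 0.16 (adjusted p = 0.22) and -0.15 (adjusted p = 0.11). The first was also lost without replicate 1 or 2 of the arrays labelled shATR (0.44 each, adjusted p = 0.091 and 0.083), and the second without shCHK1 replicate 1 (-0.30, adjusted p = 0.18) or 3 (-0.38, adjusted p = 0.071). ALDH1A3 was lower in shCHK2 of set 2, with a difference of -0.32 (SE 0.07, adjusted p = 0.013, background 4.29%), which was lost without shCHK2 replicate 1 (-0.32, adjusted p = 0.06) or 2 (-0.27, adjusted p = 0.12). No member was called in shATM (background 8.94%) or shCHK1 (1.55%) of set 2.

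**Figure D3:**
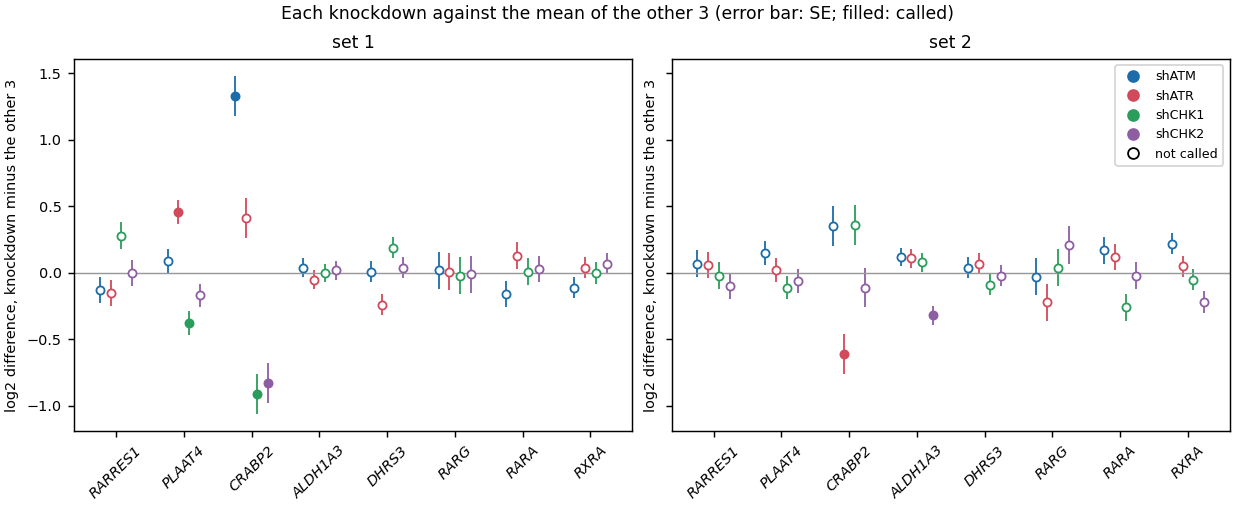
Log2 difference of each knockdown from the mean of the other 3 knockdowns of its set, for the 8 tested members, with the standard error; filled symbols passed the test. In set 1, CRABP2 is higher in shATM by 1.33 and lower in shCHK1 (-0.91) and shCHK2 (-0.83).

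Other genes of the pathway were counted by role. Among 8 tested genes of retinoid uptake, binding and storage (12 listed), 3 fell in all 8 comparisons, the count that 13% of all genes met, and none rose in all 8. LRAT, which esterifies retinol for storage, differed by -3.24 to -1.61 and was detected on 15 of 24 knockdown arrays and 6 of 6 control arrays; in the 1 group without a detected array it was at least 7.76-fold lower. STRA6, the membrane receptor for retinol carried by its plasma binding protein, fell in all 8 comparisons too and was detected on 4 and 6 arrays; in 5 groups without a detected array it was at least 2.89-fold to at least 3.38-fold lower. DGAT1, which also esterifies retinol, differed by -1.42 to -0.40. FABP5, a fatty acid carrier that can also bind retinoic acid, was higher in 6 of 8 comparisons (0.30 to 1.5), and its other probes gave 0.52 to 2.85 and 0.24 to 2.31.

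Among 17 tested genes of retinol and retinal oxidation and reduction (23 listed), 5 fell in all 8 comparisons and none rose in all 8, beside 13% and 10% of all genes. They include the retinal reductases AKR1C3 (-5.56 to -3.11) and AKR1B10 (-3.45 to -2.18), and RDH5, a retinol dehydrogenase known from the eye (detected on 1 knockdown array, and at least 1.44-fold to at least 1.75-fold lower in the other 7 groups). BCO1, which cleaves beta-carotene to retinal, was detected on no knockdown array and was at least 3.40-fold to at least 9.03-fold lower. The median difference of this list was -0.36 to -0.21 over the 8 comparisons, beside -0.01 to 0.01 for all genes. Of the genes of retinoic acid breakdown, CYP26B1 fell in 6 of 8 comparisons (-2.38 to 0.20), all 4 of set 2 among them. CYP26A1, whose compared probe was detected on 2 knockdown arrays and 2 control arrays, was called in none.

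Among 12 tested receptors and cofactors (15 listed), 3 fell in all 8 comparisons and none rose in all 8, beside 13% and 10% of all genes. TBL1X, a subunit of the nuclear receptor corepressor complex, was detected on 3 knockdown arrays and all control arrays, and was at least 4.33-fold to at least 5.51-fold lower in the 5 groups without a detected array. The coactivator NCOA1 differed by -1.01 to -0.54, and its other probes gave -0.60 to -0.20 and -0.22 to 0.34. The coactivator NCOA2 was detected on 4 knockdown arrays and was at least 1.26-fold to at least 1.33-fold lower in 5 groups without a detected array. TBL1XR1, the close relative of TBL1X, fell in 7 comparisons (-1.08 to -0.32). The median of this list was -0.72 to -0.33, beside -0.01 to 0.01 for all genes.

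Among 16 tested retinoid-induced genes (23 listed), 6 fell in all 8 comparisons and 2 rose in all 8, where 13% and 10% of all genes did. LRAT and STRA6 stand in this list too. TNFAIP2, a gene induced by tumour necrosis factor and retinoic acid, was detected on 8 knockdown arrays and was at least 6.97-fold to at least 7.16-fold lower in 4 groups without a detected array. KRT19, a simple epithelial keratin that is also a pan-epithelial marker, was detected on 2 and was at least 5.98-fold to at least 6.60-fold lower in 6 such groups. GPRC5C, an orphan receptor, was at least 5.43-fold to at least 7.25-fold lower in 5 such groups, and its other tested probe differed by -0.74 to -0.29. PLAT, the tissue plasminogen activator, rose by 2.77 to 3.41 (SE at most 0.16). Genes that retinoic acid is known to induce thus stood on both sides, with more of them lower than higher in each comparison. Of the 16, 7 to 11 were lower and 2 to 4 higher. Among all genes, 23.4% to 29% were lower and 23.1% to 25% higher, and in set 2 they too were more often lower. The median of this list was -1.27 to -0.19, beside -0.01 to 0.01 for all genes. Among 3 tested paralogs of PLAAT4, PLAAT3, a phospholipase of adipocytes, fell in all 8 comparisons, where 13% of all genes did. It was detected on 2 of 24 knockdown arrays and was at least 62.7-fold to at least 65.4-fold lower in 6 groups without a detected array, while its other probe differed by -0.50 to -0.05. Of the other paralogs, both near background, PLAAT1 was called lower in 6 comparisons and PLAAT2 in 3.

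**Figure D4:**
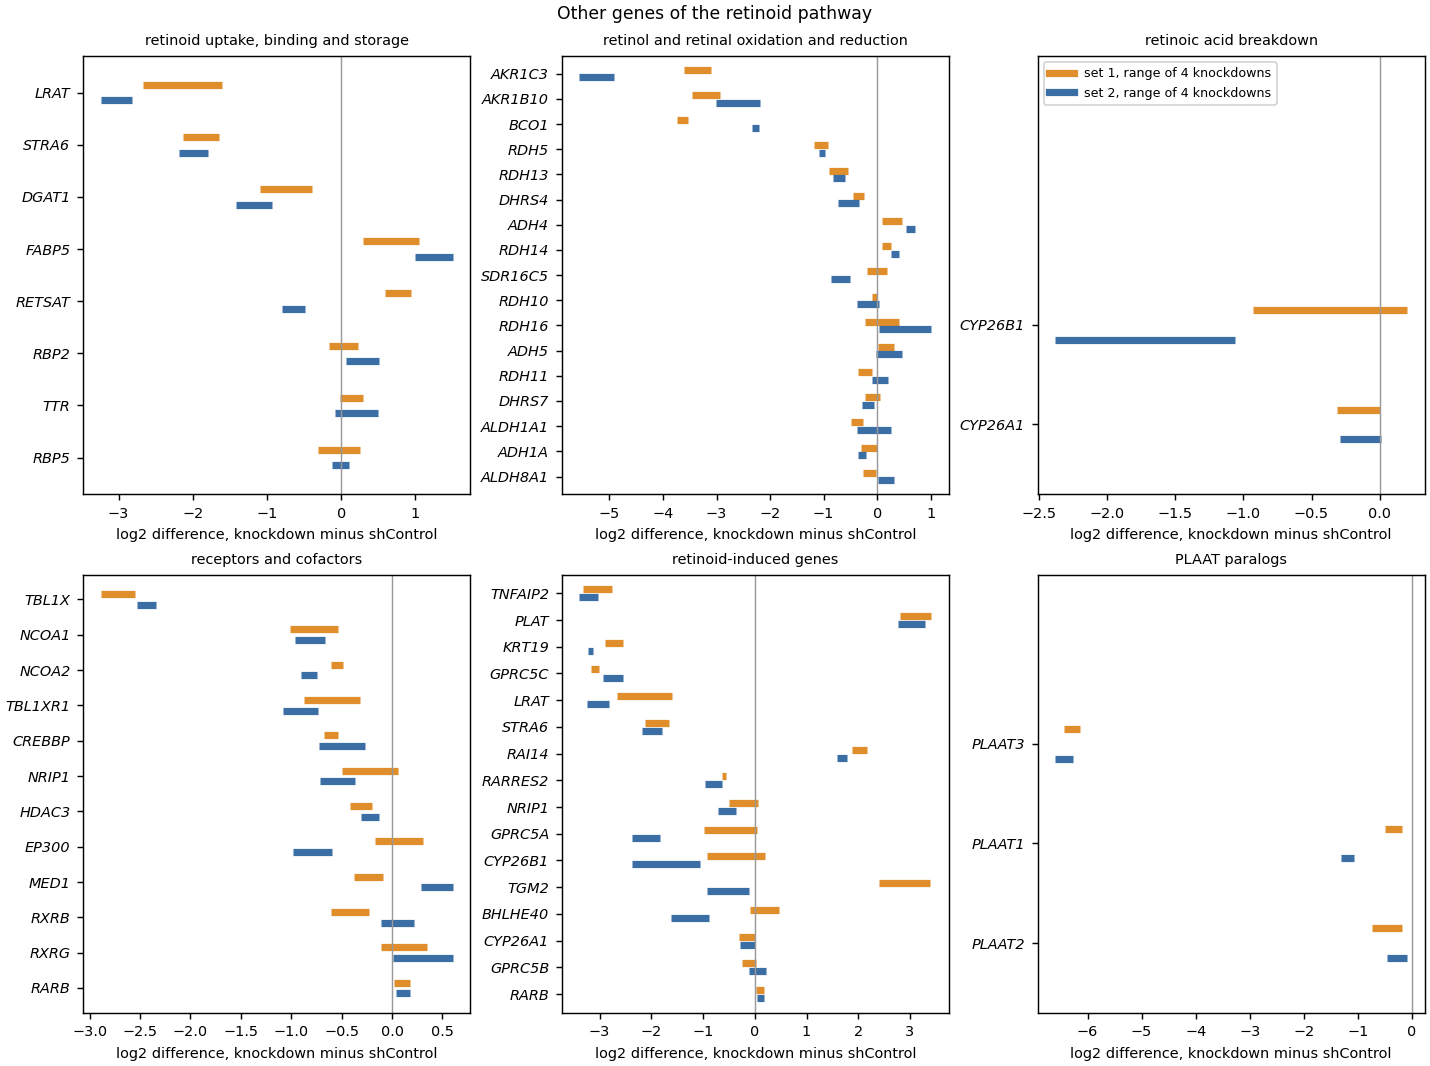
Range over the 4 knockdowns of the log2 difference from shControl for each tested gene of 6 retinoid gene lists, with set 1 above set 2 for each gene. Bars are fitted differences, which are no bounds where a knockdown group has no detected array, as in 6 of 8 groups for PLAAT3. Bars of AKR1C3 reach -5.56, while those of PLAT lie between 2.77 and 3.41.

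The genes closest to each member in pattern were found by Pearson correlation of the 10 group means, among 5082 genes whose means spanned at least 1 on the log2 scale. For RARRES1 these were HS6ST2 (0.9995), MSLN (0.9994) and SPANXD (0.9994), for CRABP2 TCF25 (0.9943), TST (0.9926) and DERA (0.9921), and for PLAAT4 EEIG1 (0.9962), OXR1 (0.9955) and BUD23 (0.993). For ALDH1A3 they were POLM (0.996), OCIAD2 (0.9892) and ACTN1 (0.9877), and for DHRS3 SRXN1 (0.8895), LPAR6 (0.8602) and CSTA (0.8322). DHRS3 was itself the nearest gene to RXRA (0.87). The 3 highest values for RARG were 0.934 to 0.958, and those for RARA 0.894 to 0.918. These points share the split between knockdown and control arrays and the split between sets, so the values only describe the pattern. Over the 8 knockdown groups alone (2300 genes), the genes nearest to PLAAT4 were the kallikreins KLK7 (0.9687), KLK11 (0.9524) and KLK6 (0.9501). PLAAT4 was detected on 4 of those 24 arrays, so these values rest mostly on its background levels. Those nearest to CRABP2 were BBLN (0.9722), EPHX2 (0.9454) and IGFL1 (0.9443), and those nearest to ALDH1A3 were POLM (0.9978), DGKA (0.9959) and OCIAD2 (0.9957).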

How the data were processed

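RNA of 30 samples in 10 groups was hybridised to Illumina bead arrays. The deposited intensity values are linear, 1 per probe and array, and not normalised. A detection p-value stands beside each, per the file headers. The authors also deposited log2 values, which are used here as an alternative. Each of their columns has a median of 6.88. Gene names come from the platform annotation, updated to current RefSeq symbols by gene ID: 30113 probes have 1 symbol, 8 several and 17110 none.

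Intensities were background corrected and quantile normalised with neqc (limma 3.58.1, R 4.3.3), with an offset of 16. Probes with a detection p under 0.05 on at least 3 arrays were kept (26967). The kept probe with the highest mean stands for its gene (13721 genes). A single limma model gave each group a mean, with 20 residual degrees of freedom. Within each comparison, two-sided p-values of all kept probes received a Benjamini-Hochberg adjustment, and a call needs an adjusted p under 0.05. The model was tested on simulated data. Where no array of a group detected a probe, each array was set no lower than its dimmest detected probe, and the fold is a lower bound.

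The members and lists were chosen with earlier results of these data known. All members were named, and up to 4 genes per list, taken as those called in the same direction in most of the 8 comparisons, then by the size of the mean difference. Replicate numbers were checked for pairing: deviations from the group mean correlated above 0.1 in 3 of 135 pairs of same-numbered arrays (median 0.00483), so no block was used. Alternatives were the authors' values, no background correction, median scaling, an offset of 50, no filter or a stricter filter (detection p under 0.01 on at least 6 arrays), 1 probe per gene, the replicate block, only the groups compared, and each array left out in turn. Slide and scan date were not analysed here. Promoter windows came from RefSeq, with 8 of 9 members matched. Figures were drawn with matplotlib 3.10.9.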

Additional observations from a re-analysis of the deposited data

Results flagged for a closer look

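For 5 members, the difference of a knockdown from shControl differed between the sets by the interaction test of the limma model. All values are set 1 minus set 2 of the log2 difference. In the order shATM, shATR, shCHK1 and shCHK2, ALDH1A3 gave 1.35, 1.29, 1.35 and 1.67 (SE 0.13, adjusted p from 2.5e-10 to 2.3e-08). Its called values were positive, and those of the other 4 members were negative. DHRS3 gave -1.22, -1.43, -0.99 and -1.15 in the same order (SE 0.14, adjusted p from 2.6e-08 to 8e-06). The 4 values of a member share the 6 control arrays, so they are not independent. They also hold the shift of shControl itself between the sets. Set 1 against set 2, that shift was 1.52 for DHRS3, 0.80 for CRABP2, 0.68 for RXRA, 0.61 for RARRES1 and -0.37 for ALDH1A3.

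RXRA gave -0.73, -0.49 and -0.44 for shATM, shATR and shCHK1 (SE 0.14, adjusted p = 0.00031, 0.011 and 0.022). The shCHK1 value missed the threshold without shCHK1 set 2 replicate 2 (-0.35, adjusted p = 0.083), shCHK1 set 1 replicate 2 (-0.40, 0.057), shControl set 1 replicate 3 (-0.39, 0.062) or shControl set 2 replicate 2 (-0.39, 0.065). CRABP2 gave -1.30 in shCHK1 and -0.89 in shCHK2 (SE 0.25, adjusted p = 0.00034 and 0.0098). With median scaling all 3 RXRA values missed the threshold (-0.59, -0.34 and -0.23, adjusted p = 0.054, 0.31 and 0.5), as did the shCHK2 value of CRABP2 (-0.57, adjusted p = 0.11).

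RARRES1 gave -0.75, -0.76 and -0.53 for shATM, shATR and shCHK2 (SE 0.18, adjusted p = 0.0023, 0.002 and 0.027). Its probe was not detected on any array of those knockdown groups, so the knockdown levels there are at background, and shControl itself differed between the sets by 0.61. The shCHK2 value missed the threshold without shControl set 1 replicate 2 or shControl set 2 replicate 3 (-0.49 and adjusted p = 0.062 each), and without shCHK2 set 1 replicate 1 (-0.51, 0.052) or 3 (-0.47, 0.07) or shCHK2 set 2 replicate 1 (-0.46, 0.077), and with median scaling (-0.49, 0.079).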

How the results depend on the processing

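RARRES1, PLAAT4 and CRABP2 kept their direction and call against shControl in all 120 combinations of comparison and alternative each. Of all member differences recomputed, 3254 kept direction and side of the threshold, 85 lost the call, 18 gained it and 3 reversed. The reversed ones were the shATR set difference of CRABP2 (0.42), which was -0.30 with the authors' log2 values and -0.30 without background correction, and ALDH1A3 in shCHK2 of set 2 (-0.31), which was 0.01 with median scaling. The cause was not tested. RARG, near background, lost calls in 31 of its 120. Median scaling put the median of all genes at 0.16, 0.12 and 0.19 in shATR, shCHK1 and shCHK2 of set 1, and the share of calls that were higher at 68.6%, 64.1% and 70.4%, against 50.2%, 50.5% and 50.8%. For the 4 set differences that share was 79.5% to 81.7%, against 58.4% to 59.8%, for shControl between sets 31.4% against 46.4%, and for the knockdowns between sets 69.2% against 57.3%.

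Counts against shControl stayed within 1.5 times, and the counts that moved were these. Members called against the other 3 knockdowns of the set became 0 for shATR set 1 and 1 for shCHK1 set 1 with the authors' values, no background correction or an offset of 50, and 0 for shATR set 1 with only the groups compared. They became 1 for shATM set 2 (from 0) and 0 for shATR set 2 with the authors' values or no background correction, and 0 for shATR and shCHK2 of set 2 with median scaling or only the groups compared. The set difference of shCHK2 called 2 members with median scaling, against 4. Genes called for shATR set 2 (283) were 461 with the authors' values, 463 without background correction, 143 with median scaling and 31 with only the groups compared. Median scaling gave 535 for shCHK1 set 1 (895), 92 for shCHK1 set 2 (212) and 333 for shCHK2 set 2 (589). With only the groups compared, shCHK1 set 2 had 39, shCHK2 set 2 had 185 and shATM set 2 had 557 (1226).

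With each array left out in turn, genes called against the other 3 ranged from 745 to 1472 for shATM, 97 to 211 for shATR, 546 to 878 for shCHK1 and 494 to 1555 for shCHK2 in set 1, the 494 without shCHK2 replicate 3. In set 2 they ranged from 126 to 306 for shATR, 107 to 220 for shCHK1 and 371 to 665 for shCHK2. Members called ranged from 0 to 1 for shATR set 1, 1 to 2 for shCHK1 set 1, and 0 to 1 for shATM, shATR and shCHK2 of set 2.

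With the replicate block, shATM of set 1 called 6409 genes, against 6399. The block lost the RARG calls of shATM (adjusted p = 0.052) and shATR (0.05) in set 1 and no other call of a member. The replicate numbers do not pair the arrays. Signal near background limits RARRES1, PLAAT4 and RARG. CRABP2 came close to it on the knockdown arrays of set 2 (log2 4.91 to 6.09), of which 10 of 12 detected it. The shCHK1 and shCHK2 arrays of set 1 were as close (5.08 to 5.56), though all detected it.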

Other observations

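Among the retinoid pathway genes, a few had a set difference called with all 4 shRNAs, a share near the 14.1% of all genes. It is thus no trait particular to the pathway, and all of these genes are named here. Most tested genes of the lists did not. AKR1C3 (set difference 1.63 to 2.41) and BCO1 (-1.52 to -1.19), described above, were among the few. Those below were called with all 4 too, and they were chosen after their values were seen. RETSAT, which saturates retinol, rose with all 4 knockdowns of set 1 (0.59 to 0.94) and fell with all 4 of set 2 (-0.80 to -0.49), a set difference of 1.27 to 1.43 (largest adjusted p = 9.9e-06, limma). TGM2, a retinoid-induced transglutaminase, rose by 2.40 to 3.39 in set 1 and differed by -0.93 to -0.11 in set 2, where 3 of 4 were called. Its set difference was 2.98 to 4.30 (largest adjusted p = 1.3e-09), while its other probes differed from shControl by -0.78 to 1.37 and -0.51 to 0.98. BHLHE40, a circadian and differentiation repressor, differed by -0.10 to 0.46 in set 1 and by -1.62 to -0.88 in set 2, where all 4 were called. GPRC5A, a retinoid-induced orphan receptor, differed by -0.99 to 0.05 in set 1 and by -2.37 to -1.84 in set 2. MED1, a mediator subunit that binds nuclear receptors, differed by -0.38 to -0.09 in set 1 and rose by 0.29 to 0.60 in set 2.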
